A study of Mus musculus with 2 samples.

Results

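Gata2, Gata3, Gata4 and Gata6 are 4 of the 6 mouse genes for GATA transcription factors, zinc finger proteins that bind the sequence GATA and set cell identity in many organs. Their regulatory DNA was described here in the facial prominences of healthy B6NCrl mouse embryos at day 11.5, the outgrowths that form the face. DNase-seq, which maps chromatin accessible to the nuclease DNase I, had been run on 2 biological replicates, each from pooled male and female embryos, and these form 1 group with no treatment and no second condition. Each library came with a list of peaks, 150 bp wide, and a list of hotspots, the wider enriched regions that hold the peaks. An element was given to a gene when its centre lay nearest to a protein-coding transcription start site (TSS) of that gene in GENCODE M21, although it may act on another gene. It was a promoter element within 1 kb of that TSS and a distal one farther away. It was shared when it overlapped an element of the same kind in the other library by 75 bp or more. By this rule the 4 genes, of 21670 protein-coding genes in all, held 253 of the 209299 peaks of replicate 1 and 195 of the 219061 peaks of replicate 2. They held 195 of 178464 hotspots in replicate 1 and 160 of 188815 in replicate 2.

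GATA factors act by binding enhancers and promoters together with partners, among them the FOG cofactors, LIM-domain bridging proteins and basic helix-loop-helix factors that bind E-boxes (CANNTG). Gata2 is known for its part in blood stem cells, endothelium and neurons, and an intronic enhancer in which an E-box stands a fixed distance from a GATA site drives it in blood vessels and emerging blood stem cells. Gata3 is known for T cells, the sympathoadrenal lineage, the inner ear and epithelia, and mouse embryos without it have defects of the jaw among others. Gata4 and Gata6 act in heart, gut endoderm and other visceral organs. Open chromatin near a gene does not show that the gene is transcribed, and a whole tissue such as this one mixes neural crest mesenchyme, ectoderm, vessels, nerves and blood.

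The sequences of 6 peaks on which the accounts of Gata2, Gata3 and Gata4 turn are given here from the plus strand of mm10, 5′ to 3′, as read from RefSeq's GRCm38.p6, the same build. The first lies upstream of Gata2 at chr6:88190656-88190805, and its capitals mark GATAA on either strand. The next is the strongest distal peak of Gata2 at chr6:88189636-88189785, with its E-box (CANNTG) in capitals. The third, chr6:88203116-88203265, is the replicate 2 peak in the Gata2 intron that holds the E-box and GATA pair, in capitals. The fourth is the strongest distal peak of the whole family, chr2:9879616-9879765 just upstream of Gata3, with a match to TGANTCA in capitals. The fifth is the strongest of the far peaks of Gata3, chr2:8674116-8674265, with GATAA on the minus strand and the E-box CATCTG on the minus strand in capitals. The last is the strongest distal peak of Gata4, chr14:63256016-63256165, which matched none of the motifs searched, and its capitals mark CG dinucleotides.
Gata2 upstream peak with GATAA: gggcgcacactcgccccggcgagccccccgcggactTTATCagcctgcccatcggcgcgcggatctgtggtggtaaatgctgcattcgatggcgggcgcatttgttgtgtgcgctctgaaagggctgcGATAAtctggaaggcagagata
Gata2 strongest distal peak: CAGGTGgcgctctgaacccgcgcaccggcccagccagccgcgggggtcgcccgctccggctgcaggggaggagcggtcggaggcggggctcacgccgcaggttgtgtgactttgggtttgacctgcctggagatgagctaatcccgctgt
Gata2 intronic peak with the E-box and GATA pair: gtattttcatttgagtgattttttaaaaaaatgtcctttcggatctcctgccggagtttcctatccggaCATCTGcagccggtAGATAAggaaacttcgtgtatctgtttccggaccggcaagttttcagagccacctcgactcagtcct
Gata3 strongest distal peak: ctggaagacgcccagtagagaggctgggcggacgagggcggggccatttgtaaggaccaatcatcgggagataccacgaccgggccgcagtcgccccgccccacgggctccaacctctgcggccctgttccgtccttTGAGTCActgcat
Gata3 strongest far peak: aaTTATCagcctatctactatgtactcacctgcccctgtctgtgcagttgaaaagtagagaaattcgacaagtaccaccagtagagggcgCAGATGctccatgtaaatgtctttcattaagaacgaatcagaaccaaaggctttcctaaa
Gata4 strongest distal peak: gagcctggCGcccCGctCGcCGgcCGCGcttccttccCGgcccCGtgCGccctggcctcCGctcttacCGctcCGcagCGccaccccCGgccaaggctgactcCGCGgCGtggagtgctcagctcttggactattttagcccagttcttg

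Each peak has a signal, deposited with it by the authors and called strength here, a whole number of unstated scale. The depth of either library is unknown. The median strength of all peaks was 16 in replicate 1 and 42 in replicate 2, so a strength is given for each library and beside it, where it helps, its percentile, the percentage of that library's peaks at or below it. Over the genome 41.1% of the peaks of replicate 1 were shared, 63.3% of its promoter peaks and 36.1% of its distal peaks, and 38.5% of the peaks of replicate 2. With 1 group of 2 libraries there is nothing to test between conditions, and the values below describe these libraries.

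The 4 loci differed widely in how much shared open chromatin they held. In all, 78 of the 253 replicate 1 peaks were shared, which is 30.8% (95% Wilson interval 25.5 to 36.8, counting error only), and 75 of the 195 replicate 2 peaks, 38.5% (31.9 to 45.5). The genome gave 41.1% and 38.5%. Of the 253 peaks 234 were distal, and 36.1% of all distal replicate 1 peaks were shared. The genes differed. In replicates 1 and 2 the share was 50.0% and 51.3% for Gata2 and 28.2% and 33.0% for Gata3. It was 15.9% and 43.8% for Gata4 and 36.2% and 37.0% for Gata6. Of the 78 shared peaks, 12 were promoter peaks and 66 distal. Joining peaks that overlapped within replicate 1 left 74 sites. If all 61871 shared distal peaks lay evenly over the genome, the stretches nearest to these genes' TSSs would hold 44.4. Gata2 had 14 where its interval of 71.1 kb predicts 1.67, Gata3 had 30 against 29.6 in 1259.7 kb, Gata4 had 6 against 3.31 in 140.8 kb and Gata6 had 16 against 9.82 in 417.9 kb. All 4 were thus above the even count, as were 44.0% of all genes, Gata3 by less than 1 peak and Gata2 by 8.38 times. Each gene also had at least 1 shared promoter peak, as did 64.9% of all protein-coding genes.

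**Figure D1:**
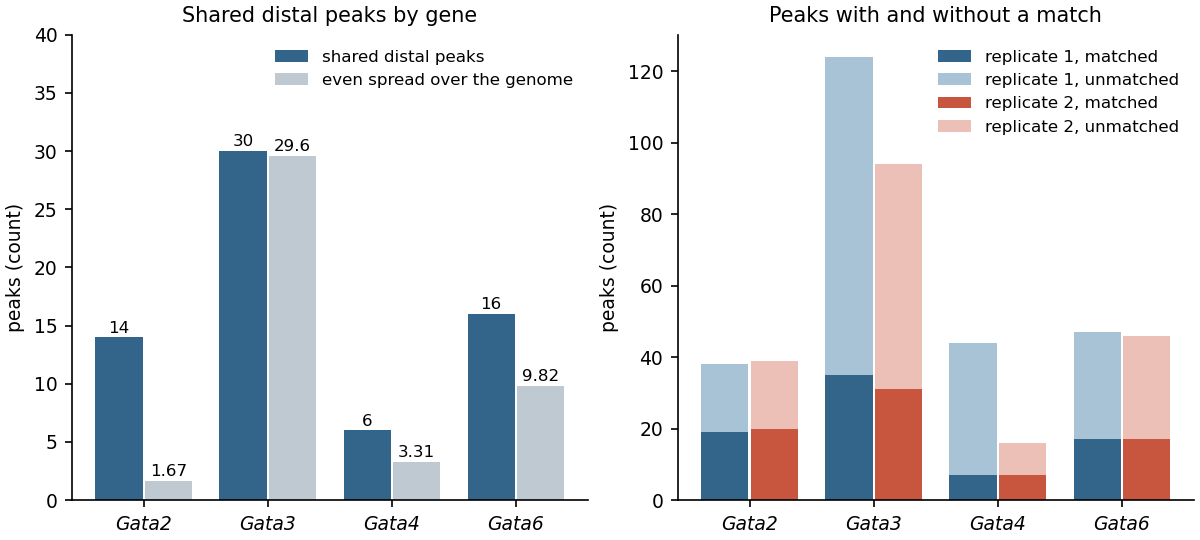
Left, number of shared distal peaks of each gene beside the number that an even spread of all shared distal peaks would give its interval. Right, peaks of each library with (dark) and without (pale) a match in the other. Gata2 stands at 14 against 1.67 and Gata3 at 30 against 29.6, and Gata4 has 44 peaks in replicate 1 and 16 in replicate 2.

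Gata2 was open along most of its length in both libraries. The gene spans 13.1 kb of chromosome 6, and hotspots covered 96.5% of it in replicate 1 and 82.7% in replicate 2. In replicate 1, 4 hotspots of over 2 kb stood end to end from 88192576 to 88205395, a run of 12.8 kb in which the widest gap was 16 bp. Its widest hotspot measured 4644 bp in replicate 1 and 4060 bp in replicate 2, each wider than 99.9% of the hotspots of its library. Hotspots took up 23.4% and 17.8% of the gene's interval, against 2.24% and 2.53% of the genome. Of the 12 hotspots given to Gata2 in replicate 1, 5 reached the ceiling of the deposited −log10 q value, which is 100, and so did 5 of 25 in replicate 2; over all genes 29.4% and 35.2% reached it. Shared with the other library were 8 of the 12 and 18 of the 25, against 47.0% and 41.4% of all hotspots.

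Both promoters of Gata2 were open in both libraries. The upstream start (Gata2-202, at 88193891) had its strongest shared peak 160 bp downstream, with a strength of 45 in replicate 1 and 82 in replicate 2. Further shared peaks lay at 680 bp (37 and 74) and 940 bp (33 and 42) downstream, the last being the shared promoter peak nearest to the 1 kb limit from inside. The downstream start (Gata2-201 and Gata2-203, at 88198334) had the strongest promoter peak of the gene, 297 bp downstream in an untranslated exon, with 75 in replicate 1 and 109 in replicate 2. A second peak lay 843 bp upstream of it, with 40 and 98. The strongest peaks of both starts stood high in each library, at percentiles of 85.4 and 84.7 for the upstream start and 94.8 and 93.7 for the downstream one.

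All 14 shared distal peaks of Gata2 lay within 8.44 kb of a TSS, and 12 of them lay inside the gene. The remaining pair lay upstream. One of these, 4180 bp before the upstream start in an intron of the antisense-strand long noncoding RNA Gm38708, was the strongest distal peak of the gene, with 75 in replicate 1 and 100 in replicate 2; this is the second sequence above, 70.7% GC. The other, 3160 bp upstream with 28 and 49, is the first sequence and holds GATAA on both strands, 2 matches in 150 bp. Ranked by the mean of the percentiles in both libraries, the strongest distal peak was followed by peaks in the introns. First came the peak 5597 bp downstream of the downstream start (chr6:88203856-88204005, 30 and 58), then 2143 bp upstream of that start (chr6:88196116-88196265, 31 and 53). Next came 5217 bp downstream of that start (chr6:88203476-88203625, 34 and 49) and 1923 bp upstream of it (chr6:88196336-88196485, 35 and 46). The median strength of the shared distal peaks of Gata2 was 30.5 in replicate 1, where all shared distal peaks had 28. In replicate 2 it was 38, where they had 64. Among the 1237 genes whose interval is within 10% of the size of Gata2's, the median was 2 shared distal peaks, and 10 genes, 0.808%, had 14 or more. With only the 50000 strongest peaks of each library, Gata2 kept 1 shared distal peak.

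The E-box and GATA pair known from the blood and vessel enhancer of Gata2, CATCTG then 8 bases then AGATAA, occurred once in the intervals of all 4 genes together. It lay at chr6:88203185-88203204, 9304 bp downstream of the upstream start in an intron of Gata2. It fell inside a hotspot of each library, of 2510 bp in replicate 1 and 1970 bp in replicate 2, and inside a replicate 2 peak of strength 61 (percentile 71.8), the third sequence above. In replicate 1 the nearest peak, of strength 33 (percentile 77.1), ended 40 bp short of the pair and overlapped the replicate 2 peak by 30 bp, so neither counted as shared. Hotspots covered 96.5% and 82.7% of the gene, so most of its sequence fell inside them. Only 2 of the 61871 shared distal peaks of the genome, 0.00323%, held this pattern. The pair in Gata2 was not among these, since it lay in no shared peak. Another enhancer of Gata2 known in blood progenitors, 77 kb upstream of the gene, had no peak within 2 kb of that distance in either library. Of the peaks given to Gata2, none lay over 10 kb upstream in replicate 1, and the 7 of replicate 2 had a strength of at most 29 and no match.

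**Figure D2:**
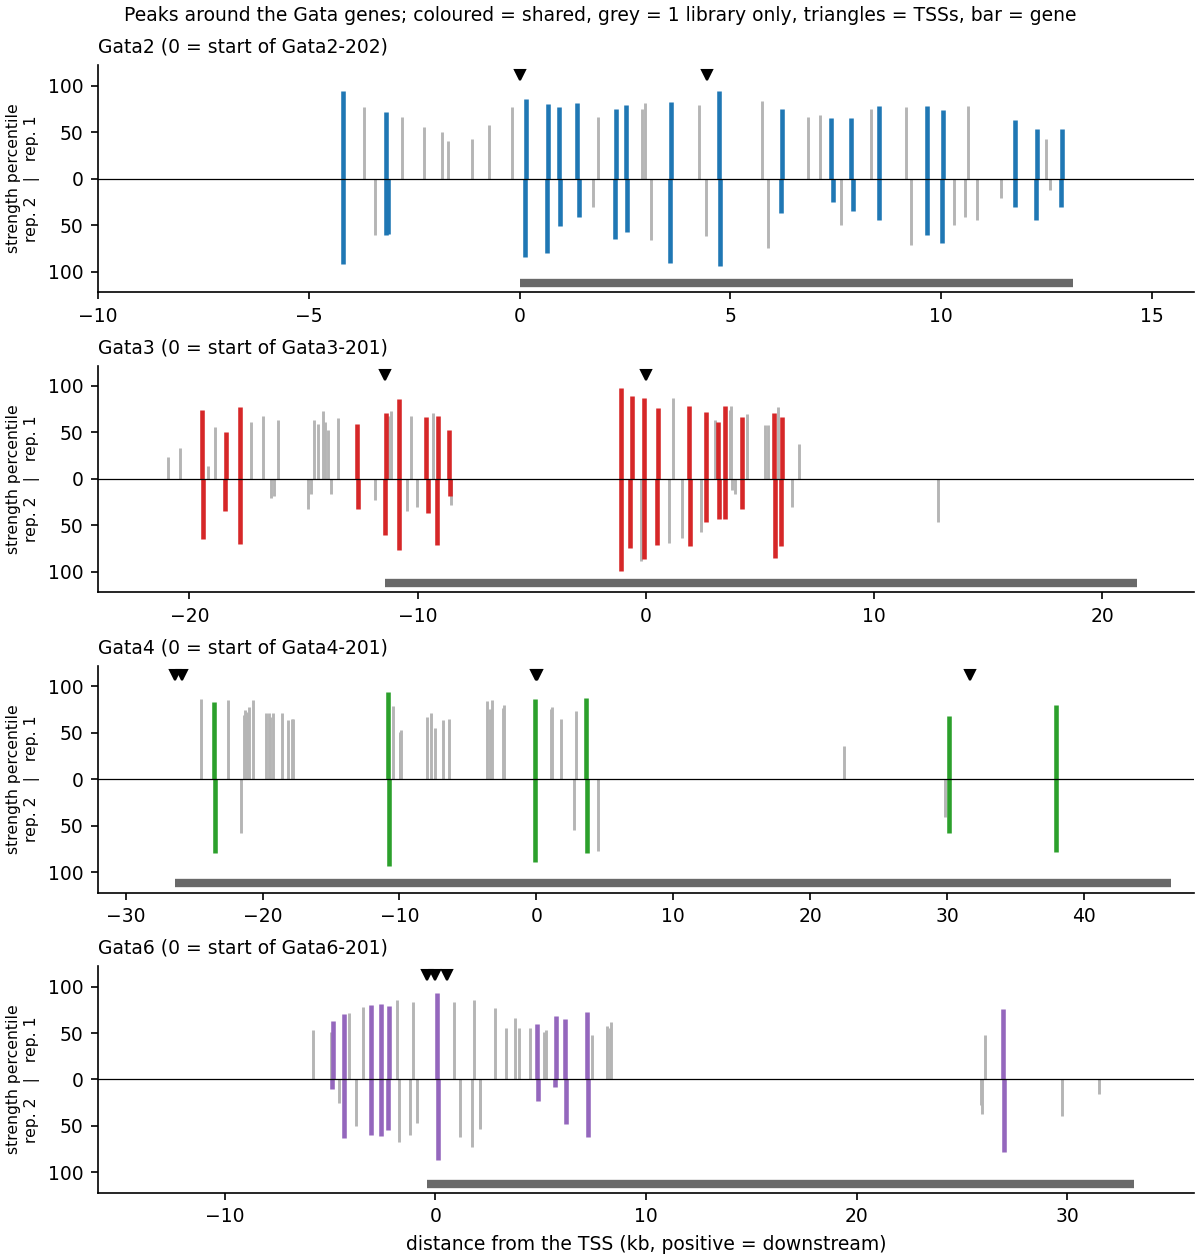
Peaks given to each gene by distance in kb from its named TSS, with bar height the strength percentile in the peak's own library, replicate 1 upward and replicate 2 downward; coloured bars are shared peaks, grey bars are in 1 library only, triangles are protein-coding TSSs and the dark bar is the gene. Gata2 has peaks along most of the gene, the gap upstream of the Gata3-201 start belongs to 2 small genes between the Gata3 starts, and Gata4 shows grey bars in replicate 1 with few below them.

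Gata3 held the strongest element of the family and the most distant ones. Its interval on chromosome 2 is the widest of the 4 because no protein-coding TSS lies for 2482 kb downstream, where Celf2 begins. Its shared peaks fell into 2 groups with nothing between 10 and 100 kb: 20 lay within 10 kb of a TSS, 5 at promoters and 15 distal, and 15 lay beyond 100 kb, joined into 11 sites. The strongest, 1091 bp upstream of the main start (Gata3-201, at 9878600) and so just outside the 1 kb limit, had a strength of 97 in replicate 1 and 137 in replicate 2. These values stood at percentiles of 98.2 and 99.3 of all peaks, and no other peak of the 4 genes, promoters included, was as strong in either library. It is the fourth sequence above, with 65.3% GC. It lay in the same hotspot, of 1712 bp in replicate 1 and 2323 bp in replicate 2, as the promoter peaks 91 bp upstream (48 and 85) and 631 bp upstream (53 and 65). Another promoter peak lay 509 bp downstream of the start with 32 and 60.

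The second start of Gata3 (Gata3-202, at 9890034) had 2 shared peaks within 1 kb, at 63 bp downstream with 27 and 49 and at 623 bp downstream with 47 and 67. Between the starts lie 2 small protein-coding genes of uncharacterised function, 4930412O13Rik and 9230102O04Rik. Peaks nearer to their TSSs were counted for them and not for Gata3, among them 1 shared promoter peak and 2 shared distal peaks of 9230102O04Rik in an interval of 3.70 kb. Within the gene, shared distal peaks continued to 5.95 kb downstream of the main start. The strongest of these were chr2:9872936-9873085 at 5589 bp, with 27 in replicate 1 and 83 in replicate 2, and chr2:9876656-9876805 at 1869 bp, with 35 and 61.

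The far peaks of Gata3 lay in the gene-poor region downstream of it, all in intergenic sequence but 1, which lay in an intron of the long noncoding RNA Gm13219. A pair overlapped each other at 245.7 kb and 245.8 kb, with strengths of 12 and 11 in replicate 1 and 29 for both in replicate 2. At 526.2 kb stood chr2:9352336-9352485, with 32 and 78. Most were farther still: 10 peaks in 7 sites lay between 1124.2 and 1240.3 kb from the TSS. The strongest of them, chr2:8674116-8674265 at 1204.4 kb, had 42 in replicate 1 and 79 in replicate 2, percentiles of 83.7 and 83.2, and is the fifth sequence above, with 42.0% GC. These distances exceed 1 Mb, and Celf2 was almost as near, since the far edge of the interval is the midpoint between the genes. Without the peaks beyond 100 kb, Gata3 kept 15 shared distal peaks. Over the whole downstream region beyond 10 kb, 63 of the 78 replicate 1 peaks and 47 of the 58 replicate 2 peaks had no match. Most distal peaks of the genome had none either. In replicate 1 these were 109395 of 171266, and in replicate 2 they were 116959, beside 60486 shared. The median strength in the downstream region was 5 and 29, against 25 and 37 for the 46 and 36 peaks nearer the gene. The 82 genes with intervals of similar size had a median of 8 shared distal peaks, and 7 of them had as many as Gata3 or more.

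**Figure D3:**
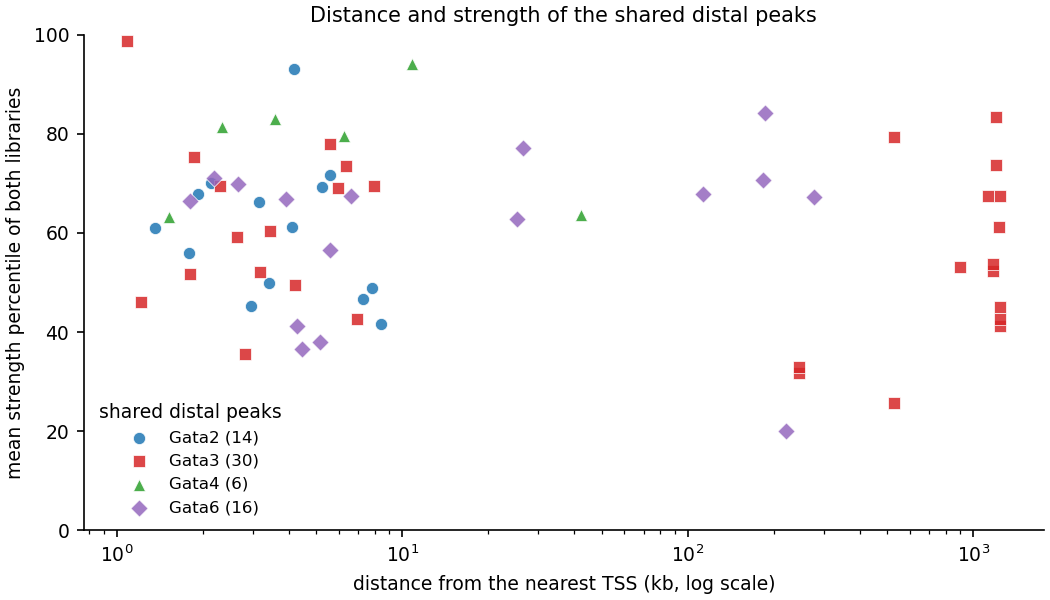
Distance of each of the 66 shared distal peaks from its TSS (kb, log scale) against the mean of its strength percentiles in both libraries. All Gata2 peaks lie within 8.44 kb, and Gata3 has 10 peaks beyond 1124 kb, the strongest of them near the 83rd percentile.

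Across the family 42 of the 66 shared distal peaks, 63.6%, lay within 10 kb of the TSS, against 28.1% of all shared distal peaks. These were the 14 of Gata2, 15 of 30 for Gata3, 4 of 6 for Gata4 and 9 of 16 for Gata6. Of the 78 shared peaks 45 were centred in 1 of the 4 genes, 2 of them in coding exons, and 25 were intergenic.

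Gata4 had 7 shared peaks, the fewest of the 4 genes. Its main promoter on chromosome 14, used by Gata4-201 and Gata4-202 (at 63245271 and 63245248), had 1 shared peak 100 bp upstream, with a strength of 47 in replicate 1 and 92 in replicate 2, below the medians of all shared promoter peaks, 59 and 101. Its other starts (63213607, 63271124 and 63271692) had no peak within 1 kb in either library. The strongest distal peak lay 10.8 kb upstream of the main start in an intron of the longer transcripts, with 72 and 110, percentiles of 94.3 and 93.9. It is the last sequence above, 71.3% GC with 17 CG dinucleotides in 150 bp. The others were chr14:63241576-63241725 at 3597 bp downstream of the start at 63245248 (48 and 72), chr14:63268716-63268865 at 2333 bp downstream of the start at 63271124 (41 and 73), chr14:63207256-63207405 at 6276 bp downstream of the start at 63213607 (37 and 71), chr14:63313736-63313885 at 42.1 kb upstream (18 and 61) and 1 peak 1524 bp upstream of the start at 63213607 (25 and 47). The median strength of the shared distal peaks of Gata4 was 39 in replicate 1, where all shared distal peaks had 28, and 71.5 in replicate 2, where they had 64, and 2 of the 6 lay below these medians in both libraries. Of 816 genes with intervals of similar size, which had a median of 4, 266 had as many shared distal peaks or more.

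Of the 4 genes, Gata4 had the most unequal number of peaks in the 2 libraries, taken as a ratio. Replicate 1 had 44 peaks there and replicate 2 had 16, a ratio of 2.75 where all peaks gave 0.955 and the other 3 genes gave 0.974 for Gata2, 1.32 for Gata3 and 1.02 for Gata6. Only 7 of the 44 were shared, 15.9% (interval 7.93 to 29.4), while 7 of the 16 were, 43.8% (23.1 to 66.8). The unmatched peaks of replicate 1 were not weak ones: their median strength was 27, the 70.8th percentile, where the median of all unmatched replicate 1 peaks was 8. This was not particular to Gata4. The 19 unmatched replicate 1 peaks of Gata2 had a median of 25 (percentile 68.1). The 30 of Gata6 had 17.5 (54.2) and the 89 of Gata3 had 6 (23.6). Those of Gata4 lay inside the gene, 35 of the 37, and 34 of these had no overlap at all with a replicate 2 peak. In the 25.4 kb of intron from 1 kb above the main start to the farthest start, replicate 1 had 32 peaks and replicate 2 had 3. Both libraries shared 2 of them, and the 30 unmatched replicate 1 peaks there ranged in strength from 15 to 47. Hotspots showed the same imbalance, with 26 in replicate 1 covering 7141 bp and 3 in replicate 2 covering 606 bp. Their median −log10 q value was 2.26 in both libraries, and 2 and 1 of them reached the ceiling. What set the libraries apart there was not tested.

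**Figure D4:**
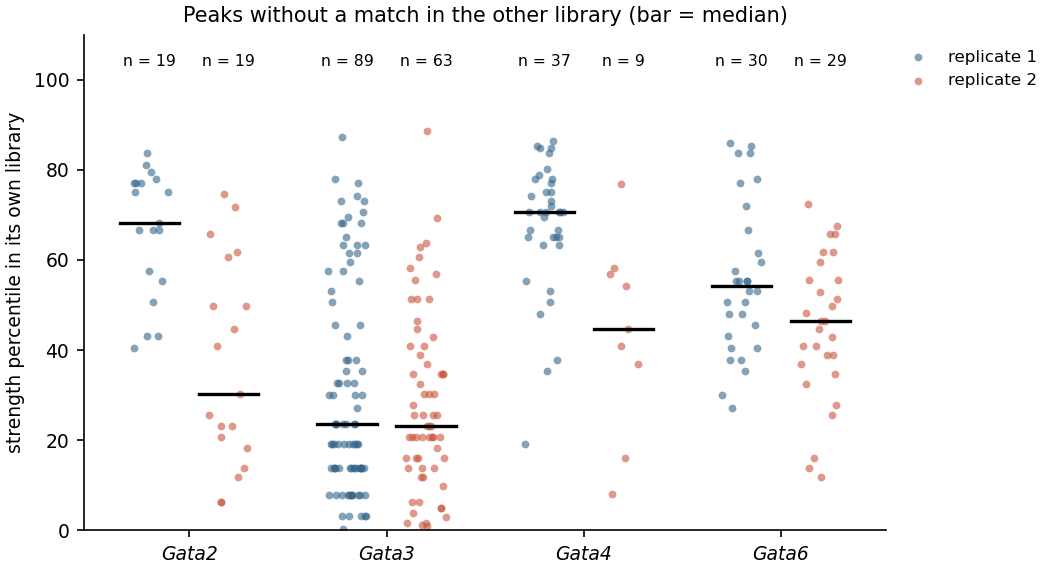
Strength percentile of every peak without a match in the other library, by gene and library, with a bar at the median. In replicate 1 the 37 unmatched peaks of Gata4 have a median percentile of 70.8 and the 19 of Gata2 have 68.1. The 30 of Gata6 have 54.2 and the 89 of Gata3 have 23.6.

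Gata6, on chromosome 18, was open at its promoter, over a long noncoding RNA of the opposite strand and at distant intergenic peaks. Its 3 protein-coding starts lie within 1 kb and shared 1 promoter peak, 61 bp downstream of the start of Gata6-201 (at 11052470), with a strength of 64 in replicate 1 and 86 in replicate 2. This peak lay in a hotspot of 2341 bp in replicate 1 and 2513 bp in replicate 2. The noncoding RNA 1010001N08Rik begins 97 bp downstream of that start and runs the other way, so the 2 genes overlap at their starts. Of the 17 shared peaks of Gata6, 7 lay in it, the promoter peak among them. Of these, 3 sat in a second hotspot upstream of the promoter, 3340 bp wide in replicate 1 and 3497 bp in replicate 2, each wider than 99.8% of the hotspots of its library. They lay 1813 bp upstream (35 and 44), 2193 bp upstream (39 and 49) and 2653 bp upstream (37 and 48).

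Of the 5 strongest distal peaks of Gata6, 3 lay over 10 kb away. The first, chr18:11239756-11239905, lay 186.8 kb downstream with 38 in replicate 1 and 88 in replicate 2, and had 73.3% GC. Next came chr18:11079356-11079505 at 26.4 kb in an intron of the gene (32 and 70) and chr18:11236796-11236945 at 183.8 kb (24 and 65). By mean percentile the peak 2193 bp upstream ranked between the last of these and the one at 26.4 kb, and the peak 2653 bp upstream ranked next below. Of the 16 shared distal peaks 9 lay within 10 kb, 2 between 10 and 100 kb and 5 beyond 100 kb. Among 352 genes with intervals of similar size the median was 8, and 74 had 16 or more. Of the Gata6 hotspots, 2 of 37 reached the ceiling of the −log10 q value in replicate 1 and 12 of 36 in replicate 2. For Gata3 these counts were 27 of 108 and 21 of 84, and for Gata4 4 of 38 and 4 of 15. Of all hotspots 29.4% in replicate 1 and 35.2% in replicate 2 reached the ceiling. Gata3, Gata4 and Gata6 each lay below that share in both libraries, Gata6 only slightly in replicate 2.

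The shared peaks kept much of their order between the libraries. Across all 78, a description over peaks that share the same libraries, Pearson's r between the strengths in both was 0.792 and Spearman's rho 0.657, against 0.904 and 0.891 over all 85950 shared peaks. By gene r and rho were 0.845 and 0.761 for the 19 of Gata2, 0.839 and 0.731 for the 35 of Gata3, 0.904 and 0.857 for the 7 of Gata4, and 0.547 and 0.347 for the 17 of Gata6. The median strength of the 78 was 27.5 in replicate 1 and 50 in replicate 2, below the 33 and 69 of all shared peaks.

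Elements near the genes and far from them ranked differently in the 2 libraries. Of the 42 shared distal peaks within 10 kb, 38 had the higher percentile in replicate 1, 14 of 14 for Gata2, 11 of 15 for Gata3, 4 of 4 for Gata4 and 9 of 9 for Gata6. Their median percentile was 71.9 in replicate 1 and 55.6 in replicate 2. Over all genes 60.0% of the shared distal peaks within 10 kb had the higher percentile in replicate 1, with medians of 76.2 and 74.7. Of the 20 beyond 100 kb only 6 had it, 5 of 15 for Gata3 and 1 of 5 for Gata6, against 47.1% over all genes. The 15 of Gata3 form 11 sites. Some of its overlapping replicate 1 peaks match the same replicate 2 peak, so these counts are not of separate elements. A percentile is relative to its own list, so these values give order within a library and no change of level. The pattern was noticed in these data and was not tested.

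**Figure D5:**
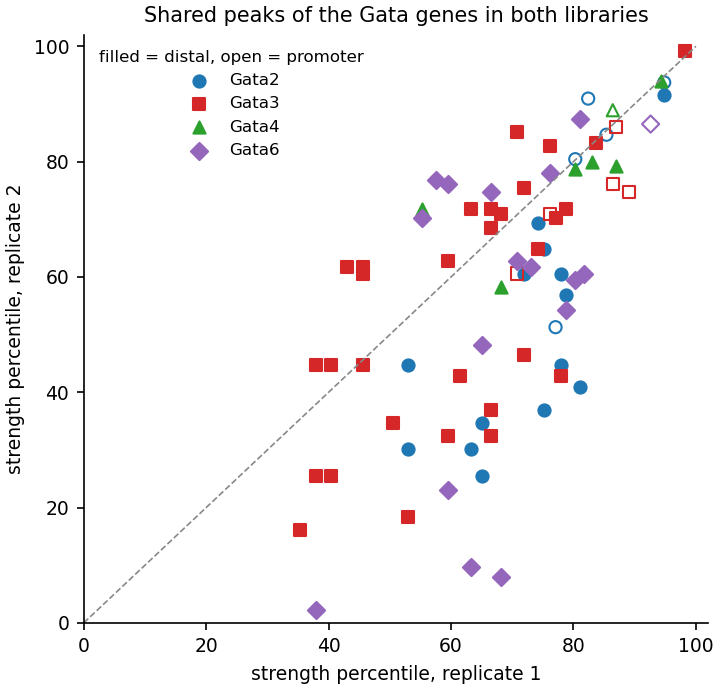
Strength percentile of the 78 shared peaks in replicate 1 (horizontal) and replicate 2 (vertical), by gene, distal peaks filled and promoter peaks open, with the line of equal percentiles dashed. All 14 distal Gata2 peaks lie below the line, and the strongest distal Gata3 peak lies at the top right at 98.2 and 99.3.

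Over the 4 genes together, GATA motifs and E-boxes of any kind were about as common in the 66 shared distal peaks as in all shared distal peaks. The E-box form CATCTG was rarer, and the genes differed among themselves. Motifs were counted on both strands in the 150 bp of each replicate 1 peak, and a match describes the letters and not binding. Peaks that overlap share their matches, so matches of Gata3, which had such peaks, are also given by site, with overlapping peaks counted as 1 site. GATAA occurred in 11 of the 66, 16.7%, against 13.5% of all. Gata3 had 7 of these 11, at 5 sites, Gata6 had 3, Gata2 had 1 and Gata4 had none. The longer AGATAA, which contains it, occurred in 3 peaks at 2 sites, all of Gata3, against 5.05% of all. An E-box of any kind (CANNTG) occurred in 41, 62.1% against 62.6%, and in 24 of the 30 of Gata3, at 20 sites, against 1 of the 6 of Gata4. Of the E-boxes the form CAGCTG occurred in 9 peaks, 13.6% against 14.3%, and 5 of the 9 were Gata3 peaks at 2 sites. The form CATCTG occurred in 7 peaks, 10.6% against 18.5%, and 4 of the 7 were Gata3 peaks at 3 sites. The AP-1 type site TGANTCA occurred in 4, 6.06% against 4.43%, and the AP-2 type site GCCNNNGGC in 6, 9.09% against 6.16%. Homeodomain-type TAATTA occurred in 2 peaks, 3.03% against 3.78%. Forkhead-type TGTTTAC occurred in 1 peak, 1.52% against 2.07%. SOX and TCF type ACAAAG occurred in 8 peaks, 12.1% against 13.3%, and 5 of the 8 were Gata3 peaks at 3 sites. The ETS type CCGGAA occurred in 4, 6.06% against 3.50%. Among the 12 promoter peaks, GATAA occurred in 2, both at the upstream start of Gata2 and 680 and 940 bp downstream of it, against 5.94% of all shared promoter peaks. The median GC content of the shared distal peaks was 57.0% for Gata2, 45.7% for Gata3, 55.0% for Gata4 and 51.3% for Gata6, against 50.0% for all.

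The other 2 genes of the family were Gata1 and Gata5. Gata1, the erythroid and megakaryocyte factor on X, had no peak and no hotspot in either library, in an interval of 42.3 kb where an even spread predicts 0.993 shared distal peaks. Gata5, which acts in heart valves and endoderm, had 3 shared promoter peaks and 6 shared distal peaks against 1.95, and its strongest peak had 58 in replicate 1 and 104 in replicate 2.

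Genes whose products work with GATA factors were mostly open. Of 22 such genes 20 had a shared promoter peak, all but Phox2a and Tbx5, against 64.9% of all genes, and 17 had more shared distal peaks than their interval predicts, against 44.0%. The median was 10 shared distal peaks, with a range of 2 to 47. The myogenic and neural crest factor Mef2c had 47 against 30.3, Hand2, a partner of GATA4 in the heart, had 31 against 10.6, and the blood factor Runx1 had 30 against 14.3. Of the FOG cofactors Zfpm1 had 15 against 4.34, while Zfpm2, the partner of GATA4 in heart and gonad, had 2 against 15.5. Trps1, a repressor with a GATA-type zinc finger that acts in cartilage and hair, had 15 against 36.8. Nkx2-5, a heart factor that binds with GATA4, had 10 against 1.64, and Hand1 had 12 against 2.44. Of the bridging complex, Ldb1 had 5 against 0.690, Lmo4 had 24 against 19.9, Lmo2 had 2 against 2.85 and Tal1 had 4 against 1.08.

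Markers of the cell types in which the 4 genes are best known were open to different degrees, and the part of each cell type in the peaks above was not tested. Shared promoter peaks were found for 10 of 12 facial mesenchyme genes, 5 of 8 ectoderm genes, 4 of 8 endothelial genes, 5 of 8 sympathoadrenal and cranial ganglion genes, 5 of 8 gut endoderm genes, 2 of 8 T cell genes, 1 of 8 heart muscle genes and 1 of 8 erythroid genes. Of all protein-coding genes 64.9% had one, so the 62.5% of the ectoderm, ganglion and gut endoderm lists was near the share of any gene. The endothelial markers Cdh5, Pecam1, Tek and Tie1 lacked one, although all 8 endothelial genes had a promoter peak in replicate 2 and 4 of them in replicate 1. Heart muscle genes with a promoter peak numbered 3 in replicate 1 and 6 in replicate 2, erythroid genes 3 in each library and T cell genes 2 in each. No share over all genes is given for single libraries, so the single-library counts are no result about these cell types. The ganglion markers without a shared promoter peak were Phox2a, a regulator of the lineage, and Th and Dbh, which encode enzymes of catecholamine synthesis.

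The genes next to each member bound what could be given to it. Gata2 lies between Rpn1, 109.4 kb away with 8 shared distal peaks, and Dnajb8, 23.9 kb away with 5 and no shared promoter peak. Gata3 has Taf3 28.4 kb away on its other side, with 5. Gata4 lies between Neil2, 20.1 kb away with 1, and Blk, a B cell kinase 145.3 kb away with 8 and no shared promoter peak. Gata6 lies between Mib1, 253.7 kb away with 5, and Rbbp8, 580.2 kb away with 14. The genes nearest to each member in number of shared distal peaks, among those with intervals within 10% in size, were Tbc1d16 (14), Alx4 (13) and Sox21 (13) for Gata2. They were Tmem132c (30), Dach1 (28) and Basp1 (28) for Gata3. They included Gnas and Fgf7 (6 each) for Gata4 and were Srrm4, Slc25a13 and Btbd11 (16 each) for Gata6.

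The limit of 75 bp separated clear matches from clear misses for most peaks. The smallest overlap counted was 90 bp, since peaks of both libraries lie on steps of 20 bp, and the next below was 70 bp, which 5 replicate 1 peaks of these genes had. In all 22 replicate 1 peaks were overlapped by less than 75 bp. The strongest peak left without a match was a replicate 2 peak 231 bp upstream of the main start of Gata3, with a strength of 91.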

How the data were processed

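DNase-seq peaks and hotspots of 2 libraries were deposited by the authors per library, on mm10, per the file headers and accompanying notes. Peaks carry a score (column 7, called strength) deposited by the authors, with no stated unit, and hotspots a deposited −log10 q value (ceiling 100); aligner and caller: not given in the sources used here. Depth is unknown. Chromosomes 1 to 19 and X were used, with 54050 TSSs of protein-coding transcripts (GENCODE M21). Elements were matched and assigned with pandas 2.3.3 and numpy 2.4.6; matching was checked against bedtools 2.31.1 and assignment on simulated elements. The expected count shares 61871 shared distal peaks out by interval size. Wilson intervals came from scipy 1.17.1 and sequence from pysam 0.24.0. No test was run, and no filter on strength was applied. Every TSS and the 5 strongest shared distal peaks of each gene were to be named. One gene that the naming rule picks is not reported here. The members and lists were chosen with earlier results of these data known. Replicates are labelled biological and come from separate biosamples.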

Additional observations from a re-analysis of the deposited data

How the results depend on the processing

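The 66 shared distal peaks stayed within 1.5 times with an overlap of 1 bp, replicate 2 peaks counted, a 100 kb limit, other promoter windows and, both added after seeing the data, TSSs of basic transcripts or joined sites. They fell to 11 at an overlap of 90%, which on the 20 bp steps keeps identical positions, to 10 among the 50000 strongest peaks, and to 43 with TSSs of all transcripts. The 12 promoter peaks became 2, 7 and 27 under these, and 6 and 25 with windows of 500 and 2500 bp. Single libraries, matched or not, held 176 to 234 distal and 19 promoter peaks. The 30.8% shared became 5.14% at 90% overlap, 39.5% at 1 bp and 38.5% for replicate 2. For single genes 30 of 40 counts from both libraries stayed within 1.5 times. With TSSs of all transcripts Gata2 kept 9 shared distal peaks and Gata3 15. Among the 50000 strongest peaks Gata2 kept 1, Gata3 3, Gata4 4 and Gata6 2. At an overlap of 90% they kept 3, 5, 0 and 3. The causes were not tested beyond the construction of each setting. No paired analysis was possible because there is 1 group.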

Other observations

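Gata4 was 1 of 33 genes with at least 30 unmatched replicate 1 peaks whose median strength was at least 20, out of 961 genes with that many. Both limits were chosen after the Gata4 values were seen, and the cause was not tested. Gata4 alone had 37 or more such peaks with a median of 27 or more. These limits are its own values, which it meets by construction, so this does not measure how unusual it is.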
